A study of Mus musculus with 14 samples.

Results

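At 6 h after the second stimulus, the LPS response of mouse macrophages that had first received Poly I:C was set against that of macrophages that had first received PBS. The quantity described is the interaction, that is, the LPS effect after Poly I:C minus the LPS effect after PBS. It rests on the 7 libraries of 6 h, of 14 in the series, and was tested in 11977 named gene entries of 39721, called genes here. All cells were bone marrow-derived macrophages of C57Bl6/J male mice aged 6 to 12 weeks, grown with L929-conditioned medium as the source of CSF-1. The groups were Poly I:C then LPS (2 libraries), Poly I:C then PBS (2 libraries), PBS then LPS (2 libraries) and PBS then PBS (1 library). Poly I:C was used at 100 ng/mL, the labels give 24 h for the first stimulus or another indicated time, the medium was then removed and the cells were washed, and the LPS dose of the second stimulus was not given for these libraries. No animal, culture or pooling is named, so the p-values reflect how far these particular libraries spread, and that spread may be technical.

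Poly I:C mimics viral double-stranded RNA and is sensed in endosomes by TLR3, a receptor that signals through TRIF, and LPS is a bacterial lipid sensed by TLR4, which signals through both MyD88 and TRIF. Both lead to type I interferon, whose receptor drives interferon-stimulated genes, and LPS drives NF-kB and AP-1 target genes such as cytokines and chemokines. An earlier stimulus can leave macrophages with a larger response to a later one (priming) or with a smaller one (tolerance), gene by gene.

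Levels are FPKM, fragments scaled by transcript length and by library size, as the authors deposited them. Each effect is a difference between group means of log2(FPKM + 1), given ± its standard error, and this scale understates changes of weakly expressed genes. Replicates correlated at r = 0.988 for Poly I:C then LPS, 0.980 for Poly I:C then PBS and 0.988 for PBS then LPS over the tested genes, which do not stand for independent replicates. The single PBS-then-PBS library enters every interaction, and also the LPS effect after PBS and the effect of Poly I:C alone. Its counterpart from 2 h correlated with it at r = 0.975, with 359 genes over 2-fold apart, and was used as the control in its place as an alternative. Macrophage markers were expressed in all 7 libraries. Their summed level was 4188 to 4324 FPKM in Poly I:C then LPS, 5656 to 5922 FPKM in Poly I:C then PBS, 14584 to 15705 FPKM in PBS then LPS and 17065 FPKM in PBS then PBS. Most of that sum was lysozyme (Lyz2), and in bulk RNA fewer cells of a type and less RNA per cell cannot be told apart. Of 10 neutrophil markers, 5 including S100a9 and Ly6g were at 0 in all 7 libraries. The sum of the list was 7.25 to 8.36 FPKM in Poly I:C then LPS, 0.325 to 0.923 in Poly I:C then PBS, 1.73 to 2.12 in PBS then LPS and 1.67 in PBS then PBS. Most of it was S100a8, an alarmin gene, whose own interaction was 2.42 ± 0.39 (limma adjusted p = 0.00115). Stromal markers summed to 59.2 to 77.9 FPKM in Poly I:C then LPS, 35.8 to 63.0 in Poly I:C then PBS, 32.6 to 87.2 in PBS then LPS and 27.5 in PBS then PBS. The part of these marker differences in the results was not tested.

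The interaction was positive in 1524 genes and negative in 2001 at an adjusted p under 0.05 (limma, Benjamini-Hochberg over all tested genes), which is 12.7% and 16.7% of those tested, or 29.4% in either direction. The median over all genes was -0.07. A negative interaction on its own does not separate a weaker response from a gene that Poly I:C alone had already moved, so called genes were placed in classes by both LPS effects and by the level after Poly I:C alone, with a margin of 1 log2 (2-fold). For comparison, 43.9% of all tested genes were called for the LPS effect after Poly I:C and 43.4% for the LPS effect after PBS. A larger LPS rise, called and at least 2-fold after Poly I:C, was found in 455 genes and a larger LPS fall by the same rule in 448. In 367 genes LPS alone gave a called rise of at least 2-fold, LPS after Poly I:C gave less than a 2-fold rise, and the level after Poly I:C alone already stood no more than 2-fold below the level after LPS alone, here called ceiling genes. The mirror class, with falls in place of rises and a level after Poly I:C alone no more than 2-fold above that after LPS alone, held 388 floor genes. A smaller rise without a ceiling was seen in 593 genes and a smaller fall without a floor in 220. These 2 names ask only for a called rise or fall of at least 2-fold with LPS alone and a weaker effect after Poly I:C. Members therefore need not have risen or fallen with LPS after Poly I:C. In 22 genes a fall with LPS alone was replaced by a rise after Poly I:C, and in 37 a rise was replaced by a fall. The remaining 439 positive and 556 negative genes moved by less than the margin or met no class. Ceiling and floor name levels in these libraries, and whether a maximum or minimum had been reached was not tested.

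**Figure D1:**
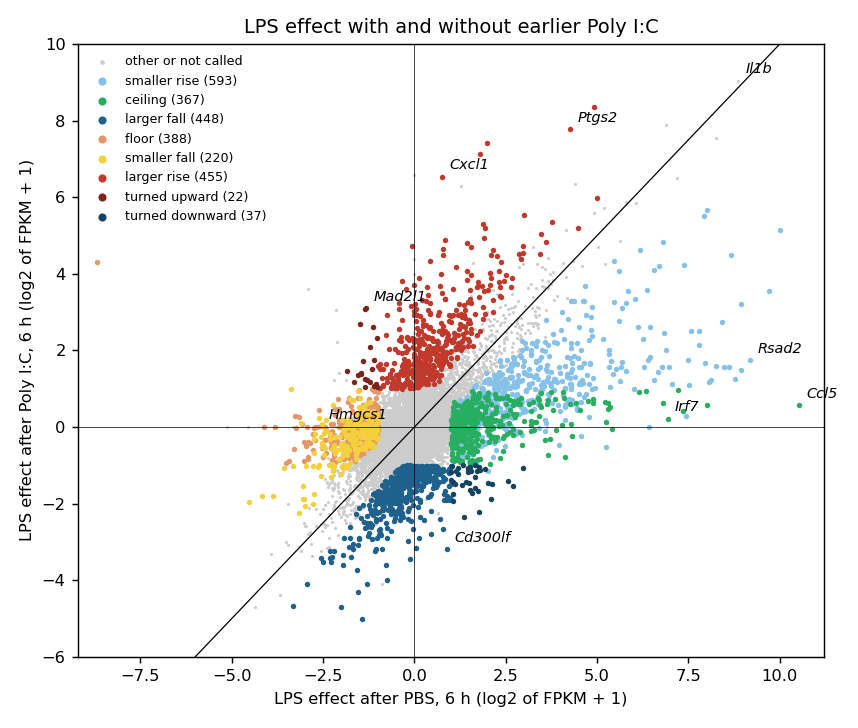
LPS effect at 6 h after Poly I:C (vertical axis) against the LPS effect after PBS (horizontal axis), both as differences of log2(FPKM + 1), for 11977 genes. Colours mark the response classes with their gene counts, grey points are other genes, and the diagonal is an equal effect: the 593 smaller rises and 367 ceiling genes lie to the right below it and the 455 larger rises above it.

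The largest interactions among the larger rises were those of neutrophil-attracting chemokines of the CXC family, which act on the receptor CXCR2. Cxcl1 (chromosome 5, 90891241 to 90893115, GRCm38) stood at 149 and 136 FPKM in Poly I:C then LPS, 0.910 and 0.241 in Poly I:C then PBS, 1.12 and 0.712 in PBS then LPS and 0.135 in PBS then PBS. Both libraries with the 2 stimuli lay far above the other 5, which held under 2 FPKM, and the interaction was 5.79 ± 0.53 (limma adjusted p = 3.41e-05). Cxcl2 was measured at 1053 and 1039 FPKM in Poly I:C then LPS, 9.80 and 2.43 in Poly I:C then PBS, 30.9 and 28.7 in PBS then LPS and 6.81 in PBS then PBS. Here LPS alone gave a level between the control and the doubly stimulated cells, and the interaction was 5.45 ± 1.13 (limma adjusted p = 0.00515). For Cxcl3 the levels were 203 and 255 FPKM in Poly I:C then LPS, 1.22 and 0.225 in Poly I:C then PBS, 3.60 and 2.58 in PBS then LPS and 0.169 in PBS then PBS, with an interaction of 5.32 ± 0.57 (limma adjusted p = 9.42e-05). In all 3 genes the effect of Poly I:C alone was not called.

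These 3 chemokine genes and Il6 are shown by a stretch of promoter, because the same kappa B letters, a sequence form bound by NF-kB, stand just before each start. The genes were chosen for printing after their values were seen. The stretches are RefSeq sequence of GRCm38.p6, plus strand, 5′ to 3′, with the match in capitals to the letters GGGA, any base, TTTCC: chr5:90891124-90891233 for Cxcl1, chr5:90903752-90903861 for Cxcl2, chr5:90785978-90786087 for Cxcl3 and chr5:30013020-30013129 for Il6.
Cxcl1: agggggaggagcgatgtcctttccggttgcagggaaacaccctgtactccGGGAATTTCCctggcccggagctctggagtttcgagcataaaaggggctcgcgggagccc
Cxcl2: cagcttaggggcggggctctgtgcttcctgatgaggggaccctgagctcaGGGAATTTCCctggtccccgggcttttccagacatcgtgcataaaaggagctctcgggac
Cxcl3: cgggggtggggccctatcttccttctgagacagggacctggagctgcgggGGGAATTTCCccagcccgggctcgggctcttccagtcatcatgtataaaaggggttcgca
Il6: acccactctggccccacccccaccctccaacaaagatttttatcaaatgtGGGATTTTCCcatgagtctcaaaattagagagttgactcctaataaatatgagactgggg
The match began 71 bases before the annotated start in Cxcl1, 97 in Cxcl2, 73 in Cxcl3 and 44 in Il6. On either strand these letters occur in 0.411% of all 32851 RefSeq promoter windows of 300 bases, and a match is a description of letters only. The printed genes were also chosen because they hold a match, so they cannot be set against that share. Of other larger rises named here, Nfkb2 held the letters in some of its windows. Ptgs2, Csf2, Hif1a, Rcl1, Ccne1 and Eno2 did not hold them, while Gbp5 and Tlr3, with negative interactions, did. A window was found for 75.1% of the tested genes, too few for a comparison of motif shares between classes, so none is given.

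Of the chemokines, 4 of 17 tested members were positive and 10 negative, with a median of -2.50. The fourth positive member, Ccl22, a ligand of CCR4 named here after its value was seen, had an interaction of 0.97. Inflammatory cytokines went both ways, with 7 positive and 5 negative of 21 tested and a median of 0.68, and 4 positive with a pseudocount of 0.1. Il6, an acute-phase cytokine (chromosome 5, 30013161 to 30019968), stood at 390 and 378 FPKM in Poly I:C then LPS, 0.390 and 0 in Poly I:C then PBS, 28.1 and 35.4 in PBS then LPS and 0.0773 in PBS then PBS. The doubly stimulated libraries were more than 10 times above those with LPS alone, and the interaction was 3.44 ± 0.73 (limma adjusted p = 0.00579). With a pseudocount of 0.1 it was 3.28 and was not called (limma adjusted p = 0.0678).

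Il23a, the p19 chain of IL-23, was listed at 14.3 and 11.9 FPKM in Poly I:C then LPS and 0.0865 and 0.0536 in Poly I:C then PBS, while all 3 libraries that had first received PBS were listed at 0. Transcript was therefore seen at more than 1 FPKM only after both stimuli, and the interaction of 3.71 ± 0.29 (limma adjusted p = 1.43e-05) depends on the pseudocount. Csf2, which encodes GM-CSF, showed a like pattern, at 12.6 and 14.2 FPKM in Poly I:C then LPS and at most 0.627 FPKM in the other 5 libraries (interaction 3.30 ± 0.46, limma adjusted p = 5.29e-04). The chemokine receptor gene Ccr7, which guides migration to lymph nodes, stood at 17.7 and 12.3 FPKM in Poly I:C then LPS and at most 0.122 FPKM elsewhere (interaction 3.77 ± 0.28). Ccr7 is also one of the dendritic cell markers, whose summed level was 16.3 to 21.9 FPKM in Poly I:C then LPS, 3.90 to 4.39 in Poly I:C then PBS, 3.46 to 4.06 in PBS then LPS and 0.163 in PBS then PBS. Besides Ccr7 only Xcr1 of that list reached 1 FPKM, and the part of dendritic cells in these values was not tested.

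Ptgs2, the prostaglandin-forming enzyme COX-2, was at 876 and 728 FPKM in Poly I:C then LPS, 2.90 and 2.36 in Poly I:C then PBS, 24.3 and 27.3 in PBS then LPS and 0.397 in PBS then PBS. Each stimulus alone raised it, both together gave the highest levels, and the interaction was 3.53 ± 0.56 (limma adjusted p = 0.00112). Of the NF-kB subunit genes, 2 of 4 tested were positive, Nfkb2 by 1.46 ± 0.28 and Nfkb1 by 0.87 ± 0.19, and 0 were negative. With the 2 h control library all 4 were called and the value for Nfkb1 was 1.67. Hif1a, the hypoxia-inducible factor subunit, stood at 73.5 and 65.6 FPKM in Poly I:C then LPS, 18.4 and 19.6 in Poly I:C then PBS, 28.7 and 26.5 in PBS then LPS and 20.3 in PBS then PBS (interaction 1.39 ± 0.25, limma adjusted p = 0.00248). Rcl1, a gene of ribosomal RNA processing, was at 152 FPKM in both Poly I:C then LPS libraries and between 4.26 and 6.58 FPKM in the other 5 (interaction 4.80 ± 0.42). Gm17711 was among the 5 largest interactions of this class at 4.02 ± 1.07 (limma adjusted p = 0.018), whose call was lost when either Poly I:C-then-LPS replicate 2 or PBS-then-LPS replicate 2 was left out. The TNF-family ligand gene Tnfsf9 passed narrowly at 3.91 ± 1.31 (limma adjusted p = 0.0476) and was not called under most alternatives, at 2.53 with the 2 h control (limma adjusted p = 0.183).

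A larger LPS effect can come from a higher end or from a lower start. Of all tested genes, 49.6% were called for the end level (both stimuli against LPS alone) and 34.5% for the start level (Poly I:C alone against control). Of the 455 larger rises, 360 ended above the level of LPS alone without starting lower than the control. Another 46 started lower and ended higher, and 46 started lower without ending higher. The remaining 3 did neither by the calls. Cd14, the LPS co-receptor, belonged to those that only started lower. Its level was 1212 and 1142 FPKM in Poly I:C then LPS, 69.4 and 87.7 in Poly I:C then PBS, 946 and 1042 in PBS then LPS and 231 in PBS then PBS. The effect of Poly I:C alone on Cd14 was -1.56 on the log2 scale, and the end level was 0.24 above that of LPS alone, which was not called, for an interaction of 1.80 ± 0.27 (limma adjusted p = 7.87e-04). In genes of glycolysis the same class held Eno2, an enolase gene, at 20.4 and 17.3 FPKM in Poly I:C then LPS and 3.33 to 4.83 FPKM in the other 5 libraries. Its interaction was 1.64 ± 0.24, or 3.63 with the 2 h control.

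**Figure D2:**
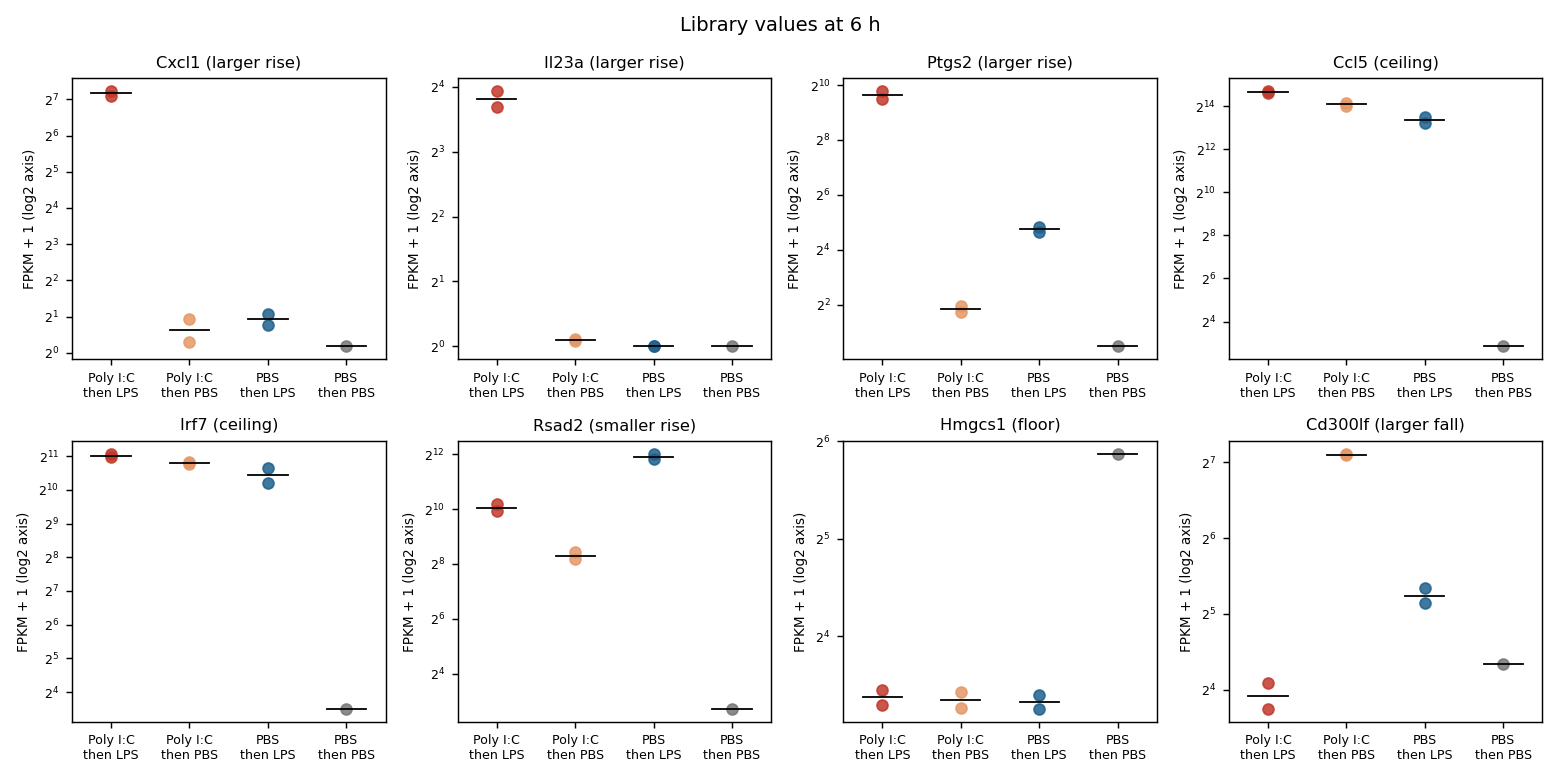
Level of 8 genes in each 6 h library, as FPKM + 1 on a log2 axis, with points for libraries and lines for group means of log2 values. Poly I:C then LPS stands above the other groups for Cxcl1, Il23a and Ptgs2, Ccl5 and Irf7 are within 2-fold of LPS alone or above it after Poly I:C alone, Hmgcs1 is high only in PBS then PBS, and Cd300lf is lowest in Poly I:C then LPS.

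In the 22 genes that turned upward, LPS lowered the level in cells given PBS first and raised it in cells given Poly I:C first. The control libraries of 6 h and 2 h were over 2-fold apart in 5 of the 22 (22.7%), against 359 of all 11977 tested genes. With the 2 h control 35 genes met the rule, of which 15 were shared with the 22. Mad2l1, a spindle checkpoint gene, stood at 42.3 and 37.9 FPKM in Poly I:C then LPS, 3.31 and 4.26 in Poly I:C then PBS, 12.3 and 10.4 in PBS then LPS and 29.8 in PBS then PBS. Poly I:C alone gave its lowest level and both stimuli its highest, with an interaction of 4.43 ± 0.22 (limma adjusted p = 9.89e-07). Mki67, the proliferation marker Ki-67, was at 9.31 and 7.79 FPKM in Poly I:C then LPS, 0.539 and 0.603 in Poly I:C then PBS, 8.46 and 6.37 in PBS then LPS and 17.2 in PBS then PBS. Its interaction was 3.72 ± 0.31 while its end level matched that of LPS alone within 0.19 on the log2 scale, and the level after Poly I:C alone was the lowest of the 4 groups. Prkar2b, a regulatory subunit of protein kinase A, was at 44.1 and 44.6 FPKM in Poly I:C then LPS, 5.41 and 3.54 in Poly I:C then PBS, 3.55 and 3.48 in PBS then LPS and 10.6 in PBS then PBS. St8sia4, a polysialyltransferase gene, had an interaction of 4.19 ± 0.32, and Maff, a small Maf transcription factor, one of 3.36 ± 0.42 (5.20 with the 2 h control).

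Interferon-stimulated genes were called on the negative side throughout the list. All 27 tested members were negative and 0 positive, with a median of -4.63 and a range of -7.44 to -2.34, and 9 of them met the ceiling rule while 18 were smaller rises. Ccl5, a chemokine of T cells and monocytes (chromosome 11, 83525771 to 83536450), had the largest negative interaction of the named genes, -9.95 ± 0.40 (limma adjusted p = 3.50e-07). It stood at 26675 and 25422 FPKM in Poly I:C then LPS, 16665 and 18263 in Poly I:C then PBS, 9700.3 and 11745 in PBS then LPS and 6.21 in PBS then PBS. Poly I:C alone had thus brought Ccl5 to 163% of the mean level of LPS alone, and the LPS effect after Poly I:C, 0.58 on the log2 scale, was not called. Irf7, the transcription factor that amplifies interferon genes, was at 2149.5 and 2007 FPKM in Poly I:C then LPS, 1760.3 and 1816 in Poly I:C then PBS, 1187 and 1601 in PBS then LPS and 10.3 in PBS then PBS. The 6 stimulated libraries lay within 2-fold of each other and the interaction was -6.72 ± 0.40 (limma adjusted p = 2.85e-06).

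Isg20, an antiviral exonuclease gene, and Cxcl9, a chemokine induced by interferon gamma, were ceiling genes too, with interactions of -6.24 ± 0.40 and -5.44 ± 0.38. Ms4a4c, with -7.43 ± 0.33, belongs to a family of similar copies whose reads may be shared, so its value is uncertain. C3, the central complement component, stood at 1628 and 1636 FPKM in Poly I:C then LPS, 1047 and 1308 in Poly I:C then PBS, 496 and 545 in PBS then LPS and 12.4 in PBS then PBS. Both Poly I:C groups lay above LPS alone, and the interaction was -4.81 ± 0.29. The costimulatory gene Cd86 followed the same order, at 156 and 146 FPKM in Poly I:C then LPS, 146 and 131 in Poly I:C then PBS, 68.4 and 92.5 in PBS then LPS and 7.14 in PBS then PBS (interaction -3.18 ± 0.26). Abcg1, a cholesterol exporter, was at 56.1 and 56.2 FPKM in Poly I:C then LPS, 74.3 and 66.4 in Poly I:C then PBS, 43.3 and 55.8 in PBS then LPS and 2.83 in PBS then PBS. Its interaction of -4.03 ± 0.21 was -2.30 with the 2 h control.

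Antigen presentation by MHC class I moved with the ceiling genes: 12 of 12 tested members were negative and 0 positive, with a median of -2.37, and 9 met the ceiling rule. Psmb9, a subunit of the immunoproteasome that cuts peptides for presentation, stood at 246 and 249 FPKM in Poly I:C then LPS, 168 and 156 in Poly I:C then PBS, 205 and 262 in PBS then LPS and 17.7 in PBS then PBS (interaction -3.03 ± 0.33). H2-Q4 and H2-Q7 rose far more with Poly I:C alone than with LPS alone. H2-Q7 stood at 1639 and 1597 FPKM in Poly I:C then LPS, 927 and 977 in Poly I:C then PBS, 15.5 and 26.8 in PBS then LPS and 1.03 in PBS then PBS. These H2-Q genes have near-identical copies and their values are uncertain, and with the 2 h control the interaction of H2-Q7 was -1.23 and was not called (limma adjusted p = 0.0536), while that of H2-Q4 was -1.96, against -3.10 with the 6 h control.

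Over the 367 ceiling genes, the level after Poly I:C alone had a median of 73.9% of that after LPS alone (quartiles 57.9% and 107%), and 106 genes stood at or above it. The class rule itself keeps this level no more than 2-fold below that after LPS alone. LPS given after Poly I:C still raised 96 of them, lowered 42 and was not called in 229. Their end level after both stimuli was called higher than after LPS alone in 64, lower in 137 and not called in 166. Ceiling genes thus did not share one outcome after the second stimulus. With the 2 h library as control 312 genes met the rule, of which 258 were shared with the 367.

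**Figure D3:**
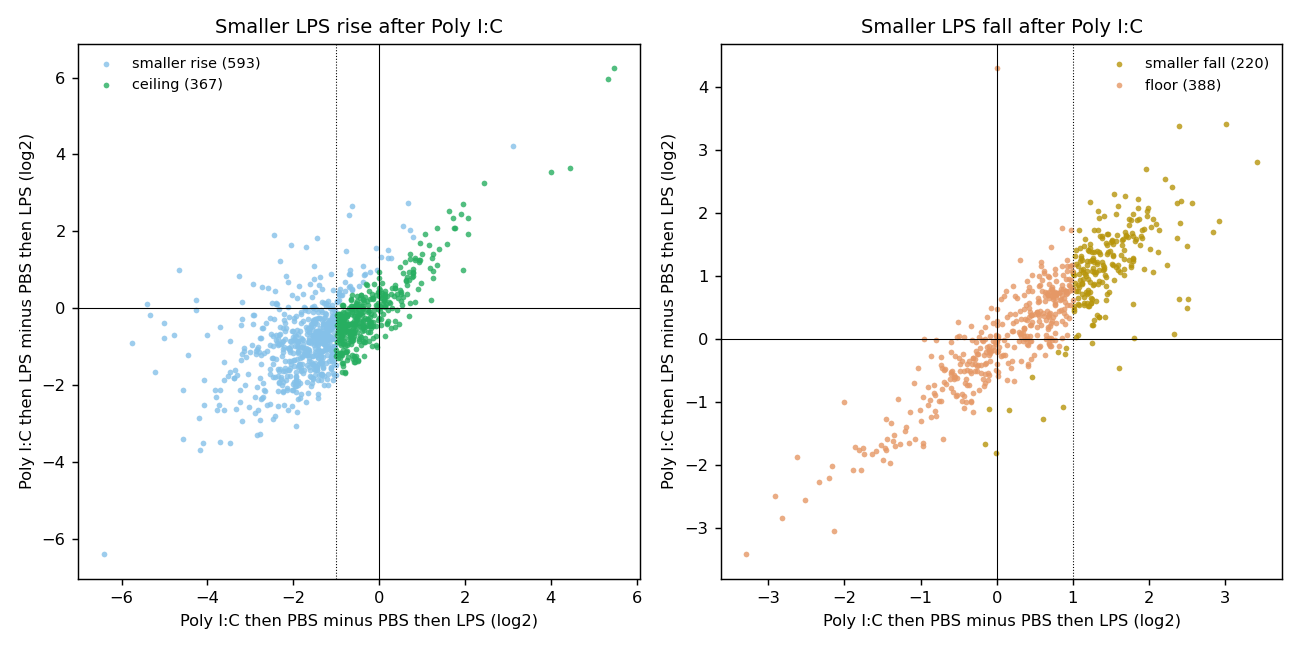
Level after Poly I:C alone (horizontal axis) and after both stimuli (vertical axis), each minus the level after LPS alone on the log2(FPKM + 1) scale. The left panel shows 367 ceiling and 593 smaller-rise genes and the right panel 388 floor and 220 smaller-fall genes, and the dotted lines mark the margin of 1 log2. Smaller-rise and smaller-fall genes across that line still moved at least 2-fold with LPS after Poly I:C. Smaller-rise genes lie mostly below the horizontal zero line and smaller-fall genes mostly above it, which the class rules favour.

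In the 593 genes with a smaller rise, Poly I:C alone left a median of 29.0% of the level after LPS alone. LPS given after Poly I:C raised 395 of them, lowered 19 and was not called in 179. The end level was called lower than after LPS alone in 436 and higher in 48. The class rule largely sets the median and favours a lower end level, so these values describe how the class was formed. Rsad2, which encodes the antiviral protein viperin (chromosome 12, 26442650 to 26456452), stood at 1149 and 977 FPKM in Poly I:C then LPS, 341 and 289 in Poly I:C then PBS, 3589 and 4116 in PBS then LPS and 5.58 in PBS then PBS. Both libraries with LPS alone lay more than 3 times above those with both stimuli, and the interaction was -7.44 ± 0.24 (limma adjusted p = 8.88e-08). Isg15, a ubiquitin-like modifier, ended at the same level either way, at 3394 and 3442 FPKM in Poly I:C then LPS, 1119.6 and 937 in Poly I:C then PBS, 3075 and 3764 in PBS then LPS and 17.9 in PBS then PBS. Its interaction was -5.75 ± 0.37 (limma adjusted p = 4.33e-06), and Poly I:C alone had brought it to 30.1% of the level after LPS alone. Cxcl10, a chemokine of activated T cells, was at 1859 and 1850.1 FPKM in Poly I:C then LPS, 183 and 137 in Poly I:C then PBS, 5144 and 6792 in PBS then LPS and 6.06 in PBS then PBS, an interaction of -6.17 ± 0.32 with an end level that was -1.67 on the log2 scale relative to LPS alone. Cmpk2, a nucleotide kinase gene induced with Rsad2, the antiviral GTPase gene Mx1 and Oasl1 had interactions of -7.04 ± 0.33, -6.90 ± 0.36 and -6.89 ± 0.28.

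A stretch of promoter is shown for 4 smaller-rise genes, Rsad2, Isg15, Gbp2 and Cxcl10, chosen after their values were seen, because each holds the letters GAAA, any 2 bases, GAAA of the interferon-stimulated response element, a sequence form found before many interferon-stimulated genes. The stretches are RefSeq sequence of GRCm38.p6, 5′ to 3′ on the gene's strand, with matches on either strand in capitals: chr12:26456513-26456622 for Rsad2 (minus strand), chr4:156200837-156200946 for Isg15 (minus strand), chr3:142620554-142620663 for Gbp2 (plus strand) and chr5:92349043-92349139 for Cxcl10 (minus strand).
Rsad2: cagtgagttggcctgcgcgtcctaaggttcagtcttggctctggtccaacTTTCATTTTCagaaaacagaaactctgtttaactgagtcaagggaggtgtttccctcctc
Isg15: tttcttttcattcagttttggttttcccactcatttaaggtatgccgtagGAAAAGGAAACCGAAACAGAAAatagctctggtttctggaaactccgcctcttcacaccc
Gbp2: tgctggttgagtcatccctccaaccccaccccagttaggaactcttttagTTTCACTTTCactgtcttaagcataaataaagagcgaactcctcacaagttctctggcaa
Cxcl10: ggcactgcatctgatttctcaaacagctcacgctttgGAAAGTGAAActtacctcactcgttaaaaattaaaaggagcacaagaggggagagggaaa
Isg15 held 3 overlapping matches and the others 1 each, and the kappa B letters were in none of these 4 stretches. The AP-1 letters TGA, any base, TCA were also sought, and gave 1 match each in Rsad2 and Gbp2, not set in capitals. On either strand the letters of the interferon-stimulated response element occur in 3.44% of all 32851 windows. These 4 genes were also printed because they hold a match, so they cannot be set against that share. Of other genes named here, Gbp5 and Socs1 held a match to this element, and Cmpk2, Oasl1, Irf7 and Isg20 held none.

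Guanylate-binding proteins and related GTPases, interferon-induced genes of cell-autonomous defence, gave 6 negative and 0 positive of 7 tested, with a median of -4.18. All 6 were smaller rises, although similar copies may share reads. The list also holds Irgm1, Tgtp1 and Tgtp2. The member not called was Tgtp1 (-0.46), whose entry starts at the same position as that of Tgtp2 (-6.41). Gbp2 was at 968 and 864 FPKM in Poly I:C then LPS, 334 and 314 in Poly I:C then PBS, 1593 and 2023 in PBS then LPS and 2.69 in PBS then PBS (interaction -7.43 ± 0.27). Gbp5 ended level, at 697 and 644 FPKM in Poly I:C then LPS against 525 and 639 in PBS then LPS, from 32.2 and 26.1 in Poly I:C then PBS and 0.427 in PBS then PBS. Among inflammasome and cell death genes 11 of 16 tested were negative and 2 positive, with a median of -2.03, and 1 was positive with a pseudocount of 0.1. The 2 positive members are near the 12.7% positive of all tested genes, of which 16.7% were negative. Il18, a cytokine matured by inflammasomes, was at 45.8 and 38.4 FPKM in Poly I:C then LPS, 14.6 and 12.4 in Poly I:C then PBS, 165 and 210.4 in PBS then LPS and 7.24 in PBS then PBS (interaction -2.94 ± 0.24).

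Effectors of inflammation and defence gave 10 negative and 3 positive of 21 tested, and 1 positive without Poly I:C-then-LPS replicate 2 or Poly I:C-then-PBS replicate 1. The 3 positive members are near the 12.7% positive of all tested genes, of which 16.7% were negative. Irg1, which makes itaconate, stood at 1435 and 1303 FPKM in Poly I:C then LPS, 164 and 131 in Poly I:C then PBS, 1839.7 and 2044 in PBS then LPS and 2.95 in PBS then PBS. The end level was -0.50 relative to LPS alone on the log2 scale and the interaction was -5.73 ± 0.28. Nos2, the inducible nitric oxide synthase, had an interaction of -2.40 ± 0.46 (limma adjusted p = 0.00352) with overlapping end levels, 299 and 234 FPKM in Poly I:C then LPS against 213 and 279 in PBS then LPS. For Cd40, a costimulatory receptor, the choice of scale set the sign. It was at 1729 and 1612 FPKM in Poly I:C then LPS, 34.6 and 29.8 in Poly I:C then PBS, 765 and 911 in PBS then LPS and 2.23 in PBS then PBS. On the log2 scale the interaction was -2.36 ± 0.23, or -1.38 with the 2 h control, whereas in FPKM the gain with LPS was larger after Poly I:C by 803 FPKM. Such opposite signs on the linear scale were found for 51 of the 593 smaller rises, 16 of the 367 ceiling genes and 4 of the 455 larger rises.

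The receptor genes moved as follows. Tlr3, the Poly I:C sensor, stood at 47.2 and 41.5 FPKM in Poly I:C then LPS, 14.7 and 12.1 in Poly I:C then PBS, 88.7 and 111 in PBS then LPS and 2.59 in PBS then PBS, with an interaction of -3.14 ± 0.24. Tlr9, a DNA sensor, turned downward, at 4.46 and 3.74 FPKM in Poly I:C then LPS, 17.3 and 18.1 in Poly I:C then PBS, 10.1 and 11.0 in PBS then LPS and 1.69 in PBS then PBS (interaction -3.98 ± 0.32). Each stimulus alone raised Tlr9, and LPS after Poly I:C lowered it. Tlr4, the LPS sensor, was not called at -0.97 ± 0.37 (limma adjusted p = 0.075), but was called at -1.62 with the 2 h control. In the whole list of TLR pathway components 7 of 22 tested were negative and 3 positive. Of the negative regulators of TLR signalling 5 of 21 were negative and 3 positive, or 6 positive with the 2 h control and 5 in the 6 h libraries alone. In both lists the 3 positive members are near the 12.7% of all tested genes. Socs1, which limits JAK signalling, had an interaction of -2.83 ± 0.65, Dusp1, a MAP kinase phosphatase gene, one of -2.83 ± 0.31, and Dusp4 one of 2.25 ± 0.37.

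Cholesterol biosynthesis genes were the clearest group among the floor genes. Of 21 tested members 15 were positive and 0 negative, with a median of 1.27, and 12 of the 15 met the floor rule. Hmgcs1, an early enzyme of the pathway, stood at 9.89 and 8.80 FPKM in Poly I:C then LPS, 9.73 and 8.57 in Poly I:C then PBS, 9.48 and 8.52 in PBS then LPS and 57.5 in PBS then PBS. The 6 stimulated libraries were nearly alike, the control was about 6 times higher, and the 2 h control library held 52.2 FPKM (interaction 2.58 ± 0.20, limma adjusted p = 1.46e-05). Insig1, which retains the pathway's activator SREBP in the endoplasmic reticulum, was at 10.5 and 9.04 FPKM in Poly I:C then LPS, 6.83 and 7.04 in Poly I:C then PBS, 12.3 and 12.0 in PBS then LPS and 78.7 in PBS then PBS. Idi1, an enzyme of the middle of the pathway, stood at 2.09 and 2.53 FPKM in Poly I:C then LPS, 0.936 and 1.04 in Poly I:C then PBS, 11.5 and 10.9 in PBS then LPS and 50.9 in PBS then PBS. All 4 libraries given Poly I:C lay below both libraries of LPS alone, and the interaction of 2.82 was 1.71 with the 2 h control. Stard4, a sterol carrier gene, had an interaction of 3.22 ± 0.40.

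Cell cycle genes gave 11 positive and 2 negative of 22 tested, with a median of 1.11, and 7 of the positive ones were floor genes. Rrm2, a subunit of ribonucleotide reductase, stood at 0.846 and 0.971 FPKM in Poly I:C then LPS, 0.539 and 0.669 in Poly I:C then PBS, 1.67 and 1.58 in PBS then LPS and 22.5 in PBS then PBS, and the 2 h control held 22.8 FPKM (interaction 3.41 ± 0.32). Ccne1, cyclin E1, was instead a larger rise, at 16.9 and 14.6 FPKM in Poly I:C then LPS, 1.32 and 2.43 in Poly I:C then PBS, 3.28 and 3.99 in PBS then LPS and 5.15 in PBS then PBS. Ccnd1, cyclin D1, went the other way as a larger fall, at 2.56 and 2.07 FPKM in Poly I:C then LPS, 16.8 and 23.6 in Poly I:C then PBS, 127 and 171 in PBS then LPS and 152 in PBS then PBS (interaction -2.62 ± 0.38). Poly I:C alone lowered Ccnd1, LPS alone did not change it detectably, and both together gave its lowest level.

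Among the other floor genes with large values were Nptx1, a neuronal pentraxin gene, at 3.82 ± 0.36 and Gpr34, a lysophosphatidylserine receptor gene, at 3.55 ± 0.45 (2.35 with the 2 h control). The PBS-then-PBS library held 17.0 FPKM of Nptx1 and 13.5 of Gpr34, and the 2 h control 8.21 and 5.34. Gm24853 was listed at 0 in the 6 stimulated libraries, 16.2 FPKM in PBS then PBS and 14.8 FPKM in the 2 h control, and its call was lost in 4 of the 6 fits that left out 1 library. The mitochondrial entry mt-Ty was listed at 0 and 388 FPKM in Poly I:C then LPS, 0 in the other 4 stimulated libraries, 415 FPKM in PBS then PBS and 0 in the 2 h control, so its call (13.00 ± 3.05) rested on 1 control library and was lost with the other. Over the 388 floor genes Poly I:C alone was called lower than control in 322, and by the class rule it could not stand above the control. The end level was called higher than after LPS alone in 101, lower in 99 and not called in 188. With the 2 h control the number of floor genes was 388 again, but 236 were shared.

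In the 220 genes with a smaller fall, Poly I:C alone left a median of 339.6% of the level after LPS alone, which the class rule largely sets. LPS given after Poly I:C lowered 71 of them, raised 9 and was not called in 140, so most showed no called fall. Gdf15, a stress-induced cytokine of the TGF-beta family, stood at 23.4 and 17.2 FPKM in Poly I:C then LPS, 9.78 and 9.38 in Poly I:C then PBS, 0.926 and 1.11 in PBS then LPS and 19.9 in PBS then PBS (interaction 4.37 ± 0.37). Gnl3, which encodes the nucleolar GTPase nucleostemin, was at 16.4 and 15.6 FPKM in Poly I:C then LPS, 15.7 and 13.7 in Poly I:C then PBS, 2.72 and 1.73 in PBS then LPS and 26.7 in PBS then PBS. All 4 libraries given Poly I:C lay above both libraries of LPS alone, for an interaction of 3.23 ± 0.24 (limma adjusted p = 1.12e-05). Tsr1 and Grwd1, which act in ribosome assembly, had the same order of groups and interactions of 2.85 ± 0.30 and 2.60 ± 0.31, and Atad3a, a mitochondrial ATPase gene, one of 2.60 ± 0.30. Of the 220 genes 194 ended above the level of LPS alone, an outcome that the class rule favours.

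The larger falls are described by their named members. Cd300lf, an inhibitory lipid receptor (chromosome 11, 115091431 to 115162236), stood at 16.0 and 12.4 FPKM in Poly I:C then LPS, 137 and 135 in Poly I:C then PBS, 34.4 and 39.4 in PBS then LPS and 19.2 in PBS then PBS. Either stimulus alone gave a level above the control and both together one below it, with an interaction of -4.09 ± 0.20 (limma adjusted p = 9.89e-07). Its activating neighbour Cd300lb was at 0.651 and 0.777 FPKM in Poly I:C then LPS, 49.3 and 60.3 in Poly I:C then PBS, 32.5 and 25.0 in PBS then LPS and 79.1 in PBS then PBS.

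Fos and Jun, the subunits of AP-1, were also larger falls. Fos was at 8.23 and 6.12 FPKM in Poly I:C then LPS, 25.9 and 33.5 in Poly I:C then PBS, 61.3 and 50.4 in PBS then LPS and 50.4 in PBS then PBS, and Jun had an interaction of -2.01 ± 0.25. The list of immediate-early genes as a whole gave 3 positive and 2 negative of 21 tested. Of all tested genes 12.7% were positive and 16.7% negative, so this count does not set the list apart. With the 2 h control the list gave 11 positive and 4 negative. In the 6 h libraries alone, and with both controls as 1, 7 were positive. Dock8, a regulator of cell migration, and 5430435G22Rik had interactions of -3.45 ± 0.28 and -3.23 ± 0.23, and Rhov one of -3.32 ± 0.47 (-2.08 with the 2 h control). Among genes that turned downward, Zyx, a focal adhesion gene, stood at 12.2 and 12.5 FPKM in Poly I:C then LPS, 22.9 and 31.4 in Poly I:C then PBS, 163 and 215 in PBS then LPS and 22.9 in PBS then PBS (interaction -4.03 ± 0.28, or -2.49 with the 2 h control). Pde7b, a phosphodiesterase gene, and Slc29a3, a nucleoside transporter of lysosomes, had interactions of -4.22 ± 0.29 and -4.00 ± 0.29, and Sectm1a one of -3.97 ± 0.59. Resident and alternative macrophage genes gave 11 negative and 2 positive of 25 tested, of which 5 were larger falls. The Fc receptor genes Fcgr1 (smaller rise, -4.81 ± 0.24) and Fcgr3 (turned downward, -2.27 ± 0.22) are also on the list of macrophage markers. Fcgr1 was at 307 and 281 FPKM in Poly I:C then LPS, 349 and 347 in Poly I:C then PBS, 801 and 932 in PBS then LPS and 35.5 in PBS then PBS, an order that differs from that of the summed markers.

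**Figure D4:**
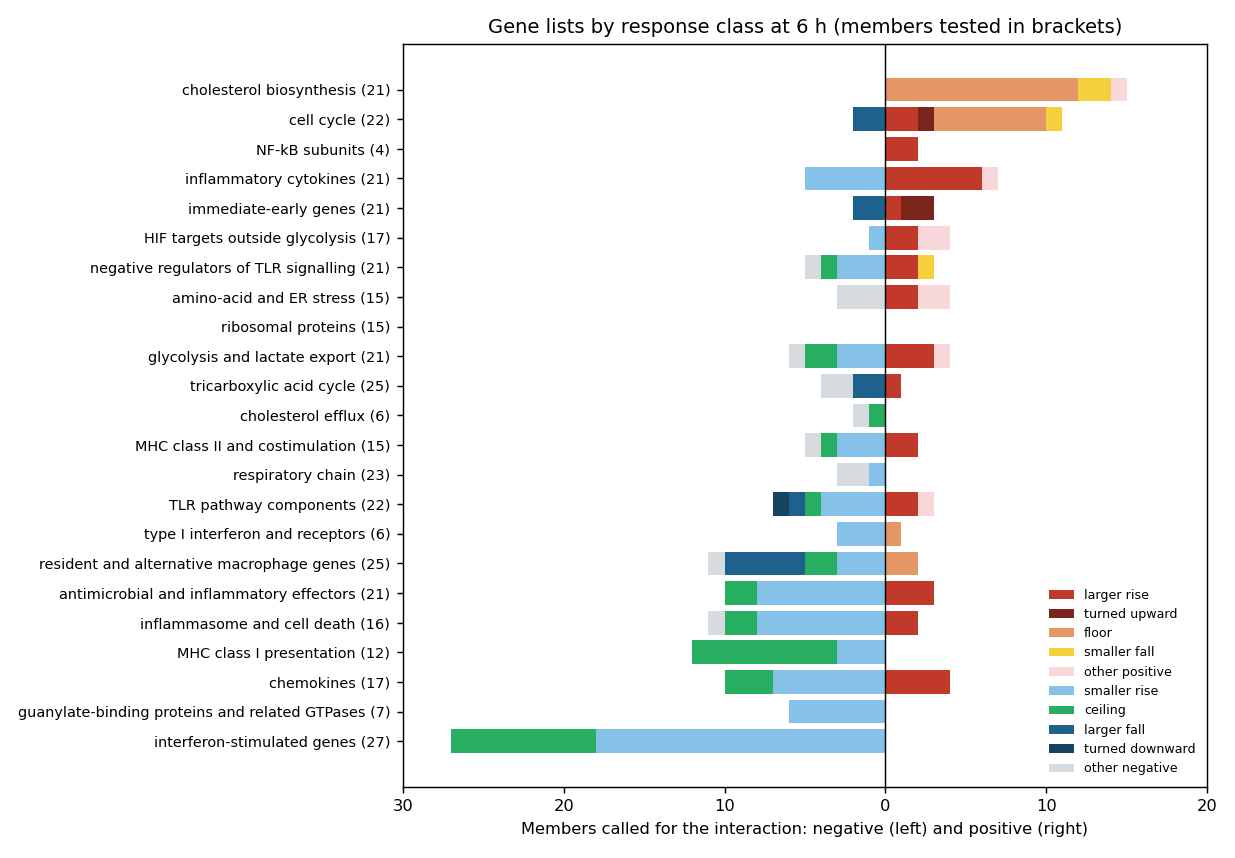
Number of members called for the interaction in each of 23 gene lists, negative to the left of zero and positive to the right, coloured by response class, with the number of tested members in brackets. Interferon-stimulated genes (27 of 27) and MHC class I genes (12 of 12) lie on the negative side only, and cholesterol biosynthesis genes (15 of 21) on the positive side only.

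Several inflammatory genes had higher end levels without a called interaction. Tnf stood at 986 and 916 FPKM in Poly I:C then LPS, 53.8 and 35.0 in Poly I:C then PBS, 227 and 227 in PBS then LPS and 30.3 in PBS then PBS. Its interaction was 1.55 ± 0.75 (limma adjusted p = 0.153) and was called at the same value in the 7 libraries of 6 h alone (limma adjusted p = 0.0117). Il1b was at 2824 and 2533 FPKM in Poly I:C then LPS, 4.99 and 3.28 in Poly I:C then PBS, 656 and 584 in PBS then LPS and 0.330 in PBS then PBS, and since Poly I:C alone had also raised it the interaction was 0.18 ± 0.56 (limma adjusted p = 0.84). With the 2 h control it was 1.66 (limma adjusted p = 0.0489), and with a pseudocount of 0.1 it was -1.16. Il1a (1.01 ± 0.88), Il12b (0.68 ± 0.40), Il10 (0.53 ± 0.49) and Ifnb1 (-0.85 ± 0.58) were not called either. With a pseudocount of 0.1, however, Ifnb1, the interferon beta gene, was called at -3.84 (limma adjusted p = 0.00119), and without PBS-then-LPS replicate 1 Il12b was called at 1.09 (limma adjusted p = 0.034). H2-Aa, an MHC class II chain, was raised by Poly I:C alone by 5.01 on the log2 scale, and its LPS effects of 0.78 after Poly I:C and 0.81 after PBS differed by less than their error (interaction -0.03 ± 0.29).

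Metabolic genes outside cholesterol synthesis showed smaller or mixed values. Of the glycolysis list 4 of 21 tested were positive and 6 negative, and the positive count was 1 with the 2 h control or both controls and 2 with no filter or without Poly I:C-then-LPS replicate 2, Poly I:C-then-PBS replicate 1 or PBS-then-LPS replicate 2. The negative members included Hk3, a hexokinase gene, at -2.34 ± 0.26 and Pfkp, a phosphofructokinase gene, at -1.93 ± 0.17, both ceiling genes. Slc2a1 (0.15 ± 0.16), Hk2 (0.08 ± 0.23) and Ldha (-0.26 ± 0.22), the glucose transporter, hexokinase and lactate dehydrogenase genes, were not called. The tricarboxylic acid cycle gave 4 negative and 1 positive of 25, with Mdh1 at -1.16 ± 0.19, and the respiratory chain 3 negative and 0 positive of 23. Neither list exceeded the shares of all tested genes, 16.7% negative and 12.7% positive, so these counts do not set them apart. The counts of both lists were also not firm. The cycle had 1 negative member when Poly I:C-then-LPS replicate 1 was left out. It had 2 when Poly I:C-then-PBS replicate 2 or PBS-then-LPS replicate 1 was, and 0 to 3 positive members over the alternatives. The respiratory chain had 1 negative member without Poly I:C-then-LPS replicate 1, Poly I:C-then-PBS replicate 1 or PBS-then-LPS replicate 2, 5 with both controls as 1 and 8 in the 6 h libraries alone. HIF targets outside glycolysis gave 4 positive and 1 negative of 17, with 2 positive under the filter of 5 FPKM and 2 negative with the 2 h control. Genes of amino-acid and ER stress gave 4 positive and 3 negative of 15, with 2 positive under either other control, among them Slc7a11, a cystine transporter gene, at 1.98 ± 0.46 and Ddit3, the transcription factor CHOP, at -1.40 ± 0.31. The 3 negative members of this stress list are near the 16.7% of all tested genes. Ddit3 stood at 254 and 262 FPKM in Poly I:C then LPS, 452 and 461 in Poly I:C then PBS, 32.0 and 37.2 in PBS then LPS and 22.8 in PBS then PBS.

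The genes of each class were then read in the 7 libraries of 2 h. These share no library with those of 6 h, but all 14 libraries were fitted together. The calls of a gene at 6 h and 2 h thus use the same residual variance and are not independent. How far this affects the shares given here was not tested. At 2 h the interaction was positive in 302 genes (2.52% of those tested) and negative in 212 (1.77%), or 4.29% in either direction. Of the 455 larger rises of 6 h, 89 were called positive at 2 h, or 19.6%. The 593 smaller rises gave 85 negative calls at 2 h, or 14.3%, and the 367 ceiling genes 22, or 5.99%. For floor genes 16 of 388 were called positive at 2 h (4.12%), and for larger falls 7 of 448 were called negative (1.56%) and 17 positive (3.79%). Of the 22 genes that turned upward 10 were called positive at 2 h (45.5%). The share of larger falls was near that of all genes, and the shares of the other classes given here were above it.

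The difference between the interactions at 6 h and 2 h was positive in 758 genes (6.33%) and negative in 1199 (10%) by limma at an adjusted p under 0.05. Cxcl3 was called at 6 h (5.32 ± 0.57) and not at 2 h (0.29 ± 0.57), where LPS alone had given 36.0 and 23.5 FPKM. Il23a had the larger value at 2 h, with 65.7 and 86.5 FPKM in Poly I:C then LPS at that time. For Irf7 the interaction was -6.72 at 6 h and -1.31 at 2 h, where Poly I:C then PBS stood at 2984 and 3182 FPKM and PBS then LPS at 120.5 and 62.6 FPKM. Cd300lf had opposite signs, -4.09 at 6 h and 1.52 ± 0.20 at 2 h, and was called at both times.

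**Figure D5:**
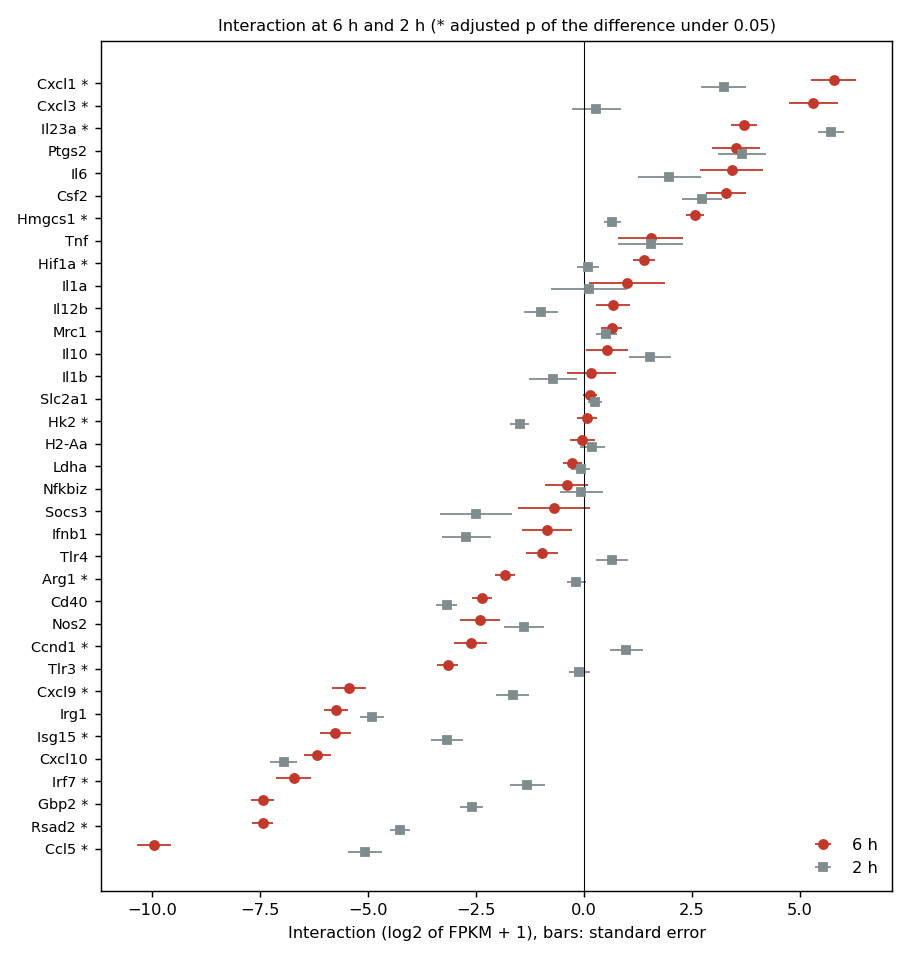
Interaction at 6 h (circles) and at 2 h (squares) for 35 inflammatory, interferon, receptor and metabolic genes, as differences of log2(FPKM + 1) with bars for the standard error. An asterisk marks the 15 genes whose values differ between the times at a limma adjusted p under 0.05, such as Cxcl3 (5.32 against 0.29) and Irf7 (-6.72 against -1.31). Of all tested genes 16.3% differed by this test, and the 35 genes were chosen with earlier results known.

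At the threshold, Adamts10 was the last gene inside (interaction 0.90, limma adjusted p = 0.0499932) and Ctso the first outside (-0.64, limma adjusted p = 0.0500085). At the margin between ceiling and smaller rise, Hk3 lay 0.996 below the level of LPS alone after Poly I:C alone and Flot1 lay 1.00 below. Between floor and smaller fall, Tyw1 lay 0.996 above the level of LPS alone and Smarcc1 1.00 above. These neighbours differ by less than the replicate error, so membership near the margins is not firm.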

How the data were processed

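RNA was polyA-selected and sequenced from a stranded mRNA kit with paired reads of 76 bp, per the labels' protocols. The deposited values are FPKM from Cuffnorm, with TopHat2, Cufflinks and the build mm9 named in the submitters' processing notes without versions or settings. Coordinates in the table fitted GRCm38 (10535 of 10544 one-gene entries found in its annotation overlapped their gene), so they are given as GRCm38. FPKM holds no read totals, so absolute depth is unknown. Tested entries had 1 FPKM or more in 2 or more libraries, 832 of them naming several genes. Where a name had several entries, the one with the highest mean FPKM was used.

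Values were taken as log2(FPKM + 1) of the deposited FPKM and fitted with limma 3.58.1 (R 4.3.3), with 1 mean per group over all 14 libraries, an intensity trend and 6 residual degrees of freedom, and p-values were adjusted by Benjamini-Hochberg over all 11977 entries. The fit was tested on simulated data, but no outcome of that test is given here, and no call rests on it. Tables and figures used Python 3.11.15, numpy 2.4.6, pandas 2.3.3 and matplotlib 3.10.9. The members and gene lists were chosen with earlier results of these data known. Genes were named by 3 rules: the 5 largest absolute interactions of each class among one-gene entries averaging at least 5 FPKM in a group, the called members of each list with the largest values (4 at most), and a panel of 35 genes. Ccl22 was named after its value was seen, marker genes come with their lists, and 6 genes mark the threshold and the class margins. Alternatives were 17 settings of pseudocount, filter, scaling, trend, samples, control library, replicate block, left-out library and class margin. A few results that the naming rule would give are not reported here.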

Additional observations from a re-analysis of the deposited data

Results flagged for a closer look

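For 15 genes of the panel of 35, the interaction differed between 6 h and 2 h by limma's test of the difference itself (adjusted p under 0.05). Of all tested genes 16.3% were called by this test. The panel was chosen with earlier results of these data known, so its count cannot be set against that share. The difference, 6 h minus 2 h, is on the log2(FPKM + 1) scale. Among interferon-stimulated and related genes it was -5.41 for Irf7, -4.89 for Ccl5, -4.84 for Gbp2, -3.79 for Cxcl9, -3.18 for Rsad2, -3.04 for Tlr3 and -2.59 for Isg15. All 7 were called negative at 6 h, and 5 of them also at 2 h, when Irf7 (-1.31) and Tlr3 (-0.10) were not called. For the chemokines Cxcl3 and Cxcl1 it was 5.03 and 2.55, and for Il23a it was -2.02. Cxcl1 and Il23a were called positive at both times, and Cxcl3 was not called at 2 h (0.29). For Hmgcs1 it was 1.91, for Hif1a 1.29, for Arg1 -1.66 and for Hk2 1.57. Ccnd1 gave -3.61, with an interaction of -2.62 at 6 h and 0.99 at 2 h. Each time has 1 PBS-then-PBS library of its own, so each difference also holds the difference between these 2 libraries, and the part of that in the values was not tested.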

How the results depend on the processing

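The counts of positive and negative interactions stayed within 1.5 times under the alternatives, with ranges of 1124 to 1373 and 1549 to 1854 when 1 library was left out. The only PBS-then-PBS library of 6 h could not be left out. With the 2 h control in its place 1567 interactions were positive and 1833 negative. Of these, 1143 were shared with the 1524 positive genes and 1522 with the 2001 negative genes of the main fit. Similar counts thus do not mean the same genes. Leaving out 1 library gave 361 to 466 larger rises, 309 to 353 ceiling genes, 290 to 357 floor genes, 478 to 631 smaller rises, 253 to 369 other positive genes, 333 to 464 other negative genes and 497 to 692 genes positive for 6 h minus 2 h. A pseudocount of 0.1 gave 38 genes turned upward, 247 floor, 332 smaller fall, 267 other positive and 57 turned downward, and turned the sign of Il1b (-1.16), Il1a (-0.40) and Il12b (-0.41). The filter of at least 5 FPKM gave 254 floor genes. With the 2 h control, 35 genes turned upward, and the sign turned for H2-Aa (0.35), Hk2 (-0.34), Socs3 (0.26) and Nfkbiz (0.11). With both controls as 1 it turned for H2-Aa (0.16) and Hk2 (-0.13), and with median-of-ratios scaling for H2-Aa (0.020). Without 1 library the value lay between -0.31 and 0.25 for H2-Aa and between -0.062 and 0.42 for Il1b, so both signs occurred. None of these genes was called in the main or the turned value. A class margin of 0.5 gave 103 turned upward, 457 smaller fall, 59 other positive, 172 turned downward and 93 other negative, since the margin sets the classes. A margin of 2 gave 225 larger rise, 0 turned upward, 73 floor, 49 smaller fall, 1177 other positive, 119 larger fall, 0 turned downward, 152 ceiling, 346 smaller rise and 1384 other negative. Same-numbered replicates did not deviate together (r = 0.014, -0.078 and -0.10), which cannot show whether they share an animal or culture. A fit with the replicate block gave 1413 positive and 1860 negative interactions. The cause of the other changes was not tested.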
